A study of Mus musculus with 5 samples.

Results

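The genes described here are 38 members of the interferon pathway, measured by bulk RNA sequencing in hematopoietic stem cells (HSCs) from mouse bone marrow. They were taken by name from a table of 24046 gene symbols. They comprise the type I interferon receptor, its signalling factors, sensors of foreign nucleic acid, antiviral effectors and antigen presentation genes. All 38 were in the table, and all 38 were among the 13661 genes that reached 10 normalized reads in 2 or more libraries and were therefore tested. Donor marrow carried Syncrip flox/flox, that is, floxed alleles of the gene of an RNA-binding protein, and was transplanted into CD45.1 congenic mice. The 3 libraries WT 1, WT 2 and WT 3 came from marrow labelled Mx1 Cre-, and the 2 libraries KO 2 and KO 3 from marrow labelled Mx1 Cre+. Every mouse, WT included, received polyinosinic:polycytidylic acid (pIpC) 6 weeks after transplantation, and donor-derived (CD45.2+) HSCs of the Lin-, Sca1+, cKit+ compartment that were also CD150+ and CD48- were sorted 3 weeks later. The ages of the mice in these libraries were not given in the labels.

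Type I interferons bind a receptor made of IFNAR1 and IFNAR2. The kinases JAK1 and TYK2 then phosphorylate STAT2, which joins a complex with IRF9 that binds the interferon-stimulated response element in the promoters of interferon-stimulated genes. pIpC mimics double-stranded RNA, is sensed by TLR3 and MDA5, and causes a burst of type I interferon, and acute interferon drives resting HSCs into cycle and raises their Sca-1. The same burst switches on Cre in this model, because Cre is driven by the interferon-inducible Mx1 promoter. No group without pIpC was included, so the libraries do not show how far any gene stood above or below its level before pIpC. Carrying Cre and losing Syncrip cannot be told apart either, since both KO libraries had both and no WT library had either.

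The values are normalized read counts, that is, reads divided by a size factor of each library. Total reads came to 12539599 in KO 3, the shallowest library, to 18308876 in KO 2 and to between 21748781 and 22779536 in WT. The targeted gene, Syncrip, was at 1944, 1440 and 1794 normalized reads in WT and at 294 and 343 in KO (log2 fold change of -2.43 ± 0.22 SE, limma adjusted p = 0.0352). The 10 HSC markers were detected in every library, but WT 2, KO 2 and KO 3 stood apart from the other libraries in different ways. In WT 2, the 7 endothelium and stroma markers summed to 2230 normalized reads, against 650 to 928 elsewhere. Cxcl12 was at 798 in WT 2 and at 6.66 to 66.0 elsewhere. The 12 adipocyte markers summed to 27602 normalized reads in KO 2 and to between 150 and 609 elsewhere, with Adipoq at 959 in KO 2 and at 0 in WT 1 and KO 3. In KO 3, 7 neutrophil genes took 2.36% of reads, against 4.90% in KO 2 and 5.59% to 6.71% in WT. Of these, Elane in KO 3, at 71897 normalized reads, lay inside the WT range of 71505 to 100807, and the others lay below all WT values. The HSC markers took 0.188% of reads in KO 3, against 0.0955% in KO 2 and 0.0696% to 0.123% in WT. The counts of called members, and of members whose groups did not overlap, are therefore also given below without each KO library. Nothing in the labels says that the libraries came from separate animals, so the p-values measure the spread between these libraries only, and in bulk RNA fewer cells of a type and less RNA per cell cannot be told apart.

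The interferon-stimulated response element that defines this response could be read in the members' promoters. Of the 38 members, 31 had a promoter sequence in the RefSeq table used here (GRCm38.p6, 250 bases before to 50 bases after each gene's start). The core searched was GAAANNGAAA on both strands, and 18 of the 31 members (58.1%) held it, against 3.99% of all 27025 promoters in the table. The gamma-activated site TTCNNNGAA, which reads the same on both strands and does not contain the other core, was in 9 of the 31 members (29.0%) and in 9.55% of all promoters. The sites below are those nearest the start in the members whose KO values both lay above or both below all WT values, since these are the genes the comparison turns on. They are written 5′ to 3′ on the strand that carries the core, with the core in capitals.
Isg15: aggaaaccGAAACAGAAAatagctct
Ifih1: agagaatcGAAACAGAAAccgatctg
Ddx58: ggccatagGAAATCGAAActgcctca
Ifit3: ggaaagtaGAAACTGAAAcagactta
Gbp7: ggagaactGAAACTGAAActgcacac
Irgm1: aagaaataGAAACCGAAActgattct
B2m: aagaacatGAAACTGAAAatgggaaa

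These windows of 26 bases lay at chr4:156200867-156200892 (Isg15, minus strand), chr2:62646206-62646231 (Ifih1, minus strand), chr4:40239806-40239831 (Ddx58, plus strand), chr19:34583399-34583424 (Ifit3, minus strand), chr3:142530275-142530300 (Gbp7, minus strand), chr11:48871427-48871452 (Irgm1, minus strand) and chr2:122147540-122147565 (B2m, plus strand). Isg15 was higher in both KO libraries and the other 6 were lower. The promoters of Oasl1, Tap1 and Ifit2, whose groups did not overlap either, did not hold these letters. All 5 promoters of GBP and IRG genes in the table held them. Ifit3 and Gbp7 shared the core GAAACTGAAA with B2m, and Isg15 shared GAAACAGAAA with Ifih1. On the strand of the gene, the cores of Ifih1 and Ddx58 began 33 and 3 bases after the RefSeq start, inside the transcribed region, and the other 5 began before it. A match describes the letters only and does not show that the site was in use.

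Interferon pathway transcripts were present in every library 3 weeks after pIpC. Per kilobase of longest transcript, B2m, the light chain of MHC class I, was the most abundant member in WT, with 28672 normalized reads per kilobase. Ifitm2, Ifitm3 and Ifitm1, membrane proteins that block virus entry, followed with 8115, 4689 and 1441 normalized reads per kilobase, then Tap1, the peptide transporter of antigen presentation, with 994. The same 5 genes led in the same order in KO. The lowest 3 in WT were Ifit3, Mx1 and Mx2, with 12.9, 7.13 and 6.13 normalized reads per kilobase, and they were also the lowest 3 in KO. Summed over the members, the genes took 0.376%, 0.263% and 0.263% of reads in WT, 0.252% in KO 2 and 0.290% in KO 3. B2m made up much of this sum. Without B2m, KO 3 was the highest library with 0.215% of reads and WT 3 the lowest with 0.143%, while WT 1, WT 2 and KO 2 stood at 0.200%, 0.167% and 0.160%.

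**Figure D1:**
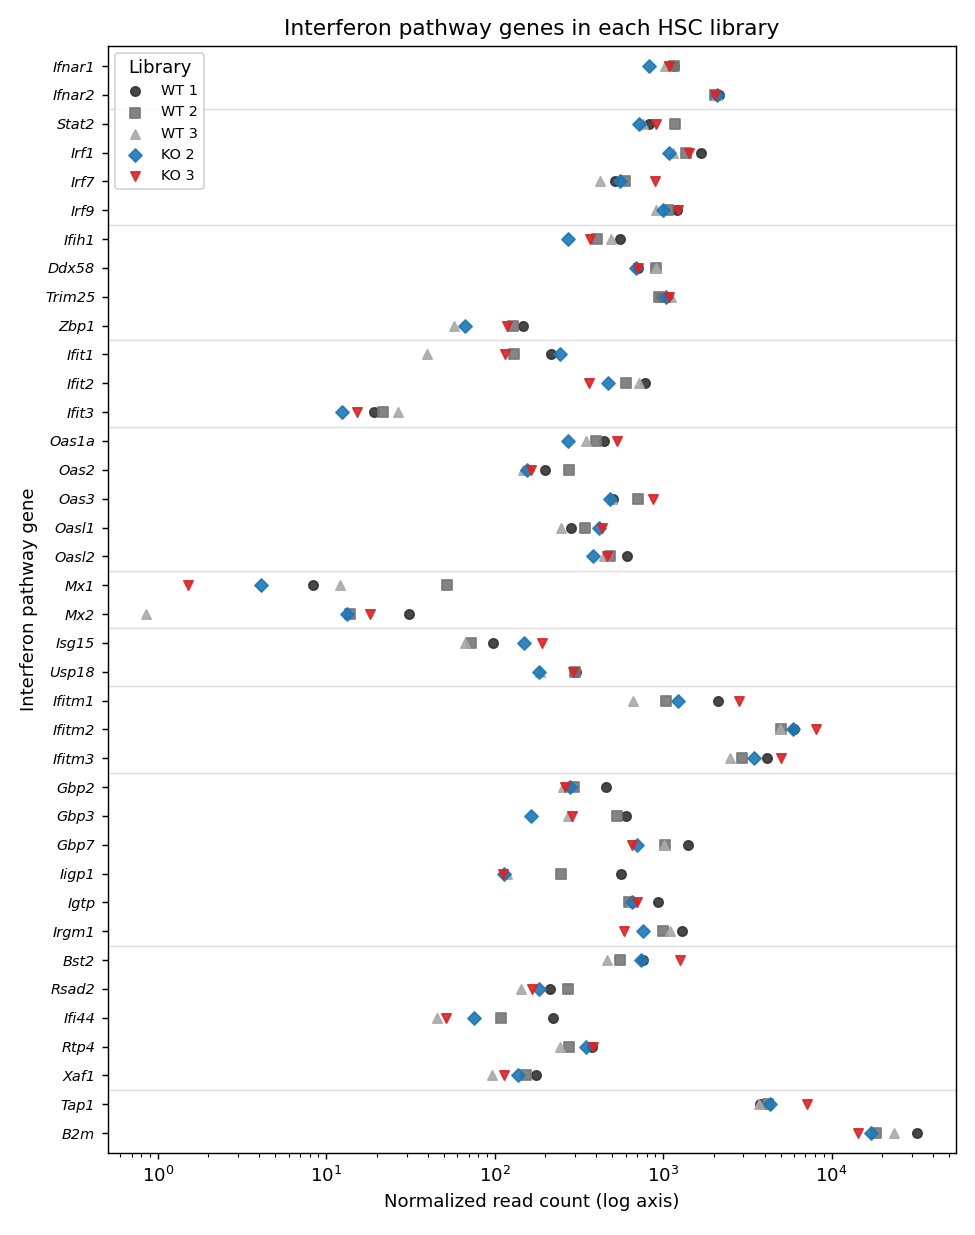
Normalized read count (log axis) of each of the 38 interferon pathway genes in each of the 5 libraries, with 1 marker per library and genes grouped by role. Levels run from 0.857 for Mx2 in WT 3 to 32143 for B2m in WT 1, and for 12 of the 38 genes both KO markers lie on the same side of all WT markers.

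The comparison of KO with WT addressed whether the interferon pathway stood at another level in HSCs from Mx1 Cre+ marrow, in which Syncrip reads were lower. No member was called by limma at an adjusted p under 0.05 (0 of 38; 0.00732% of all genes tested were called). The lowest adjusted p among the members was 0.0931, for Irgm1. At an unadjusted p under 0.05 there were 7 members, 2 higher and 5 lower in KO (18.4% of the members, against 27.8% of all genes tested). edgeR's quasi-likelihood test called 0 of 38 (lowest adjusted p 0.101), with 10 at an unadjusted p under 0.05 (26.3%, against 27.2% of all genes). DESeq2, the tool the study names, called 3 members lower and 0 higher among the 35 for which it gave an adjusted p (8.57%, against 18.7% of all genes, 9.46% lower and 9.27% higher). Those 3 were Ifit2, Gbp7 and Irgm1.

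Both KO values lay above, or both below, all WT values for 12 of the 38 members (31.6%), a smaller share than the 47.1% of all genes tested. Of these 12, 3 were higher in KO (7.89%, against 23.9% of all genes) and 9 were lower (23.7%, against 23.2%). The share of lower members was thus close to that of genes in general. The median log2 fold change over the members was -0.15, with 24 below 0 and 14 above, beside a median of 0.02 for all genes tested. Only 4 members (10.5%) differed by at least 2-fold in either direction, against 18.0% of all genes: Mx1, Iigp1 and Gbp3 were lower and Isg15 was higher.

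**Figure D2:**
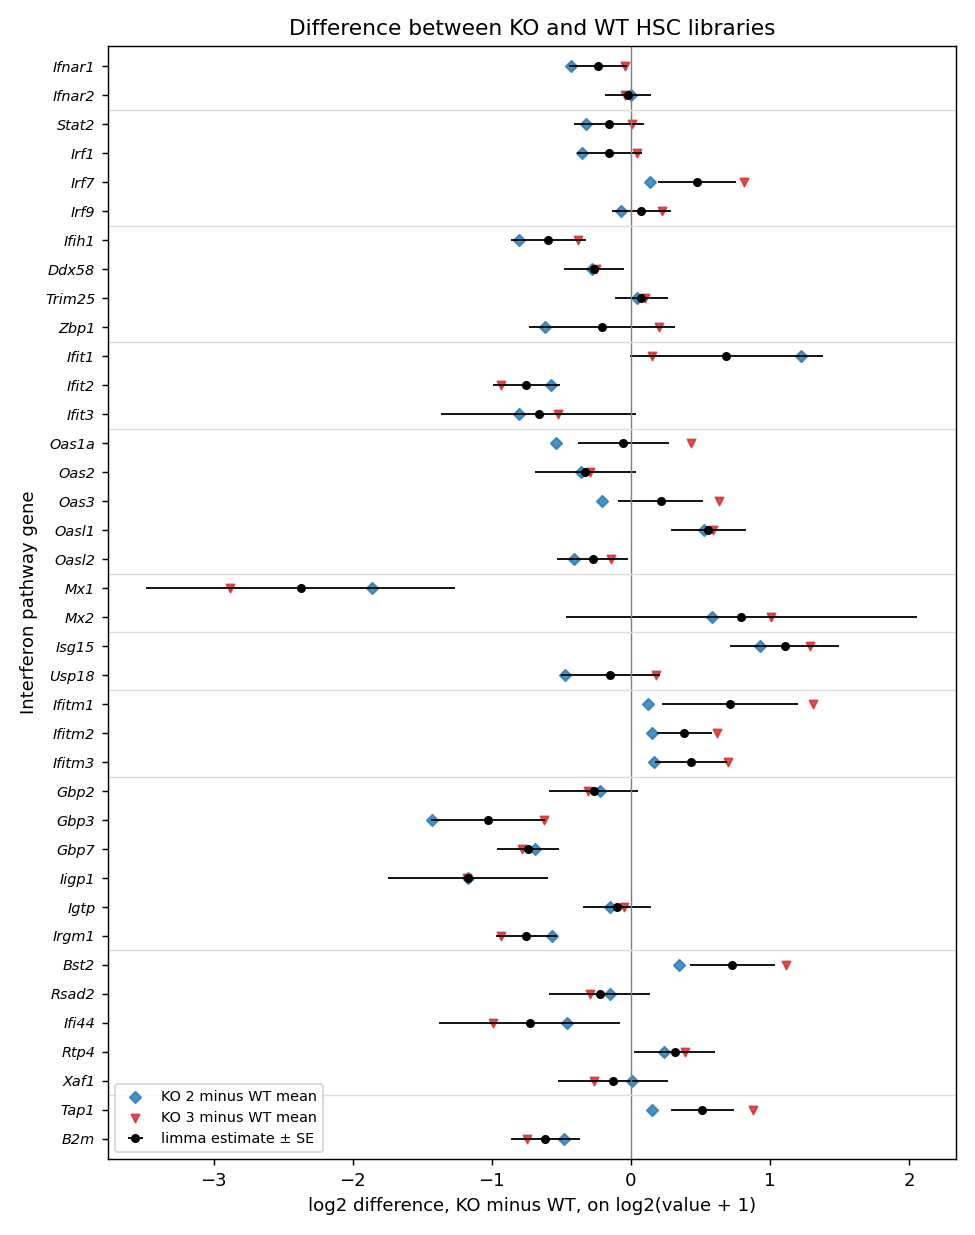
Log2 difference between KO and WT for each of the 38 genes on the log2(value + 1) scale; black points are limma estimates with 1 SE, and coloured points are KO 2 and KO 3, each minus the WT mean. Estimates lie on both sides of 0, from -2.37 for Mx1 to 1.11 for Isg15, and no gene passed an adjusted p under 0.05 in limma.

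Neither chain of the receptor had groups that stood apart (47.1% of all genes tested did). Ifnar1, the chain that carries TYK2, was at 1155, 1155 and 1024 normalized reads in WT and at 823 and 1078 in KO (log2 fold change of -0.24 ± 0.21 SE, limma adjusted p = 0.478). Ifnar2, the chain that binds STAT2 and JAK1, was at 2154, 2034 and 2084 in WT and at 2089 and 2027 in KO, and its log2 fold change of -0.02 ± 0.17 SE (limma adjusted p = 0.939) was the smallest of all members. KO 2 was the lowest library for Ifnar1, whereas for Ifnar2 all 5 libraries lay within a narrow range and the groups overlapped. An exon of Ifnar2 overlaps Gm21970 on the same strand, so their reads may be shared.

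Among the signalling factors, none of the 4 had groups that stood apart (47.1% of all genes tested did). Irf9, the DNA-binding partner of STAT2, was at 1208, 1068 and 914 normalized reads in WT and at 1003 and 1232 in KO (log2 fold change of 0.07 ± 0.21 SE, limma adjusted p = 0.841). Stat2 and Irf1, an activator that is itself induced by interferon, had log2 fold changes of -0.16 and -0.16. Irf7, which amplifies type I interferon production, had 0.47 ± 0.28 SE (limma adjusted p = 0.293), with KO 3 at 891 normalized reads above every other library and KO 2 at 558 inside the WT range of 424 to 594. Irf9 and Irf7 share exonic bases with Rnf31 and Phrf1.

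Of the 4 sensors, 2 were below all WT values in both KO libraries (23.2% of all genes tested were lower in this way). Ifih1, which encodes the double-stranded RNA sensor MDA5, was at 551, 405 and 491 normalized reads in WT and at 273 and 368 in KO (log2 fold change of -0.59 ± 0.27 SE, limma adjusted p = 0.192). Ddx58, which encodes the RNA sensor RIG-I, was at 713, 912 and 912 in WT and at 692 and 706 in KO (log2 fold change of -0.26 ± 0.22 SE, limma adjusted p = 0.440). Neither pair of KO values reached the lowest WT value, although for Ddx58 the gap to WT 1 was small. Trim25, the ubiquitin ligase that acts on RIG-I, was at 977, 947 and 1112 in WT and at 1043 and 1083 in KO (log2 fold change of 0.07 ± 0.19 SE, limma adjusted p = 0.820), with KO inside the WT range. Zbp1, a sensor of Z-form nucleic acid, ranged from 57.4 to 148 normalized reads in WT and from 66.8 to 118 in KO.

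The 3 IFIT genes encode proteins that bind viral RNA and lie in a cluster on chromosome 19. Ifit2 was at 777, 603 and 718 normalized reads in WT and at 468 and 363 in KO, so that both KO values lay below all WT values. Its log2 fold change was -0.75 ± 0.24 SE in limma (adjusted p = 0.104) and -0.75 ± 0.27 SE in DESeq2, in which it fell with an adjusted p of 0.0343. Ifit3 was near the lower limit of the filter, at 19.1, 21.7 and 26.6 in WT and at 12.3 and 15.2 in KO (log2 fold change of -0.66 ± 0.70 SE, limma adjusted p = 0.555). DESeq2 gave no adjusted p for Ifit3, and its KO values rested on 12 and 10 reads. Ifit1 spread 5.49-fold within WT, from 39.4 in WT 3 to 216 in WT 1, with KO 2 at 244 above WT 1 and KO 3 at 115 below WT 2. Ifit3 has a near-identical copy, Ifit3b, with which its reads may be shared.

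Of the 5 OAS genes, whose products sense double-stranded RNA, only Oasl1 had groups that did not overlap (47.1% of all genes tested did not overlap). Oasl1, a member without synthetase activity, was at 282, 342 and 247 normalized reads in WT and at 415 and 433 in KO (log2 fold change of 0.56 ± 0.27 SE, limma adjusted p = 0.210). Oas1a was at 446, 399 and 350 in WT and at 272 and 536 in KO (log2 fold change of -0.05 ± 0.33 SE, limma adjusted p = 0.927). For Oas1a the KO libraries were the lowest and the highest of the 5, so the near-zero estimate averages values on opposite sides of WT. Oas2, Oas3 and Oasl2 had log2 fold changes of -0.33, 0.21 and -0.28. Oas1a and its copies, such as Oas1g, are similar in sequence, and reads may be split among them.

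The MX genes were close to the limit of detection. Mx1, an antiviral GTPase, was at 8.33, 52.1 and 12.0 normalized reads in WT and at 4.11 and 1.52 in KO (log2 fold change of -2.37 ± 1.11 SE, limma adjusted p = 0.201). This was the largest difference of any member, but it rested on few reads, 60 in WT 2 beside 10 and 14 in the other WT libraries and 4 and 1 in KO. Mx2, annotated as a polymorphic pseudogene, was at 30.8, 13.9 and 0.857 in WT and at 13.4 and 18.2 in KO (log2 fold change of 0.79 ± 1.26 SE, limma adjusted p = 0.704). DESeq2 gave no adjusted p for either gene. The endogenous Mx1 gene responds to the same inducer as the Cre transgene, and its counts in these cells were low with and without that transgene.

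Isg15 had the largest estimate above 0 of any member. It encodes a ubiquitin-like protein that is attached to other proteins after interferon. Its values were 98.2, 72.0 and 66.8 normalized reads in WT and 149 and 191 in KO, so that both KO libraries lay above all WT libraries (log2 fold change of 1.11 ± 0.39 SE, limma adjusted p = 0.121; DESeq2 adjusted p = 0.0595). Usp18, which removes ISG15 and restrains IFNAR2 signalling, was at 302, 301 and 185 in WT and at 184 and 290 in KO, inside or at the edge of the WT range.

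The 3 IFITM genes had estimates above 0, as did 6979 of the 13661 genes tested. Their groups did not separate (those of 47.1% of all genes tested did). Ifitm1 was at 2112, 1038 and 663 normalized reads in WT and at 1233 and 2810 in KO (log2 fold change of 0.72 ± 0.49 SE, limma adjusted p = 0.362). Ifitm2 and Ifitm3 had log2 fold changes of 0.38 and 0.43. In all 3 genes KO 3 was the highest library, whereas KO 2 lay inside the WT range and WT 3 was the lowest. The 3 genes lie in a cluster on chromosome 7 and are similar in sequence, so reads may be split among them.

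All 6 GTPases of the GBP and IRG families, which take part in defence against intracellular pathogens, had estimates below 0 (48.9% of all genes tested did). In 3 of them both KO values lay below all WT values (23.2% of all genes tested were lower in this way). WT 1 was the highest WT library for all 6, and in the fit with the replicate number as a block, in which WT 1 carries no weight, Igtp was at 0.078 and Gbp2 at -0.02. Gbp7 was at 1399, 1027 and 1007 normalized reads in WT and at 701 and 656 in KO. Its log2 fold change was -0.74 ± 0.22 SE in limma (adjusted p = 0.0956), and in DESeq2 it fell with an adjusted p of 0.0237. Both KO values stood clearly below the lowest WT value.

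Irgm1, which regulates the other IRG proteins and is needed for HSC maintenance during infection, was at 1288, 999 and 1092 in WT and at 757 and 585 in KO. Its log2 fold change was -0.75 ± 0.22 SE in limma (adjusted p = 0.0931), and in DESeq2 it fell with an adjusted p of 0.0227. The KO values again lay below all WT values, with KO 3 the lowest library. Igtp, which encodes IRGM3, was at 932, 626 and 656 in WT and at 654 and 700 in KO (log2 fold change of -0.10 ± 0.24 SE, limma adjusted p = 0.805). Only the estimate of Irgm1 was large against its SE, and reads of Igtp may be shared with Irgm2, whose exons overlap its own.

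Iigp1 and Gbp3 had larger estimates with larger errors. Iigp1, an IRG protein that destroys pathogen vacuoles, was at 560, 249 and 119 normalized reads in WT and at 113 and 112 in KO (log2 fold change of -1.17 ± 0.58 SE, limma adjusted p = 0.219). The KO values were almost equal to each other and to WT 3, and the difference came from WT 1 and WT 2. Gbp3 was at 605, 535 and 273 in WT and at 164 and 289 in KO (log2 fold change of -1.03 ± 0.41 SE, limma adjusted p = 0.151), so that KO 3 lay just above WT 3. Gbp2 had a log2 fold change of -0.27. The GBP genes lie in a cluster on chromosome 3 and resemble one another, so reads may be split among them.

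None of the 5 other antiviral effectors had groups that stood apart (47.1% of all genes tested did). Bst2, or tetherin, which holds budding virus at the cell surface, was at 757, 558 and 467 normalized reads in WT and at 741 and 1259 in KO (log2 fold change of 0.73 ± 0.30 SE, limma adjusted p = 0.164). KO 3 was above every WT library and KO 2 was just below WT 1. Ifi44, at 223, 109 and 45.4 in WT and at 75.0 and 51.6 in KO, had a log2 fold change of -0.73 ± 0.65 SE (limma adjusted p = 0.485). Its estimate was -0.18 with the replicate block, in which WT 1 carries no weight, and -0.05 after correction for transcript length and GC content. Rsad2, which encodes the antiviral enzyme viperin, Rtp4 and Xaf1 had log2 fold changes of -0.22, 0.31 and -0.13.

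The antigen presentation members lay on opposite sides of WT. Tap1 was at 3764, 4171 and 3731 normalized reads in WT and at 4313 and 7121 in KO (log2 fold change of 0.51 ± 0.23 SE, limma adjusted p = 0.182). KO 2 exceeded WT 2 by little, and KO 3 made most of the difference. B2m was at 32143, 18290 and 23541 in WT and at 17164 and 14324 in KO (log2 fold change of -0.61 ± 0.25 SE, limma adjusted p = 0.158). For B2m both KO libraries were below all WT libraries, with KO 2 close to WT 2. Tap1 shares exonic bases with Psmb9 on the opposite strand, and whether the counting used strand was not given in the sources used here.

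The members' levels also differed among the WT libraries. The median log2 difference over the members was 0.33 for WT 1 and -0.35 for WT 3, each against the other WT libraries, and 0.0023 for WT 2. Against the WT mean it was -0.25 for KO 2 and -0.02 for KO 3, a reference that differs from that of the WT medians, so the 2 sets are not ranked against each other. These medians average genes on both sides of 0, such as Ifitm1 (1.31) and Mx1 (-2.88) in KO 3, so a median near 0 does not show that single genes were close to WT. WT 1 was the highest WT library for 26 of the 38 members (68.4%, against 36.4% of all genes tested), and WT 3 was the lowest for 28 (73.7%, against 30.4%). This order appeared in Ifit1, Iigp1, Ifi44, Ifitm1 and Gbp3, which spread 5.49-fold, 4.70-fold, 4.91-fold, 3.18-fold and 2.22-fold within WT. Over all members, the median SD of the WT libraries was 0.30 on the log2 scale, beside 0.25 for all genes tested.

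Sums of some cell type markers moved with this order. The HSC markers, which include the interferon-responsive gene Ly6a, took 0.123%, 0.107% and 0.0696% of reads in WT 1, WT 2 and WT 3, and the neutrophil genes took 5.59%, 6.24% and 6.71%. Of the neutrophil genes, Ltf and Ngp rose from WT 1 through WT 2 to WT 3, whereas S100a8, S100a9, Camp, Elane and Mpo did not. KO 3 was above KO 2 for 26 of the 38 members (68.4%, against 49.6% of all genes) and also had the larger share of HSC markers and the smaller share of neutrophil genes. The 9 macrophage and monocyte markers in the table were detected in every library and summed to 5476 normalized reads in KO 3 and to between 14544 and 20328 elsewhere. Plasmacytoid dendritic cells, a strong source of type I interferon, were hardly represented: their 5 markers summed to between 15.2 and 48.3 normalized reads, and the defining marker Siglech was at 0 in 4 of 5 libraries and at 1 read in WT 1. Cd48, the marker that the sorting gate excluded, was at 696, 601 and 768 normalized reads in WT and at 459 and 191 in KO. Both KO values lay below all WT values (23.2% of all genes tested were lower in this way). The part of these cell type markers in the members' levels was not tested.

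**Figure D3:**
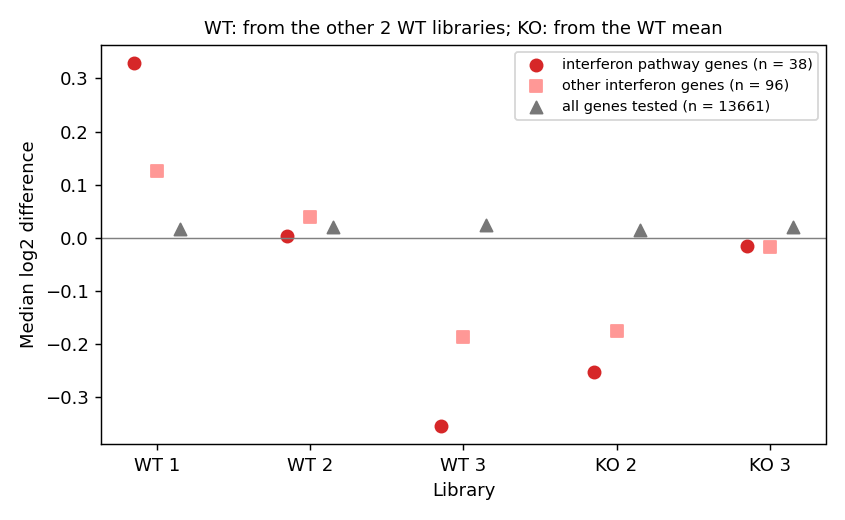
Median log2 difference in each library over the 38 interferon pathway genes (circles), 96 other interferon genes (squares) and all 13661 genes tested (triangles); WT libraries are set against the other 2 WT libraries and KO libraries against the WT mean. The members' medians run from 0.33 in WT 1 to -0.35 in WT 3, and those of KO 2 and KO 3, on the other reference, are -0.25 and -0.02, while the medians of all genes stay near 0.

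Which members stood above or below WT went along with the base composition of their transcripts. The 3 members higher in KO had a GC content of 52.8% to 56.3% in the longest transcript, and the 9 lower members had 39.3% to 47.5%, with no overlap between these ranges. Across the 38 genes, GC content and log2 fold change had a Pearson r of 0.62 and a Spearman rho of 0.73. Across 13015 genes with a known GC content these were 0.53 and 0.60, so the relation was also present among genes in general. These correlations are across genes of the same 5 libraries, and genes are not independent replicates.

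After each library was corrected for a trend on the length and GC content of transcripts, the median log2 fold change of the members was -0.05, and the groups did not overlap for 5 of the 38 (13.2%, against 35.7% of all genes after the same correction). The estimate of Isg15 went from 1.11 to 0.95 and that of Mx1 from -2.37 to -2.19. The estimates of Gbp7 and Ifit2 shrank from -0.74 to -0.17 and from -0.75 to -0.19, that of Irgm1 from -0.75 to -0.45, that of Tap1 from 0.51 to 0.08, and that of Oasl1 from 0.56 to 0.11. Iigp1 went from -1.17 to -0.41, Ifih1 from -0.59 to -0.10 and Ddx58 from -0.26 to -0.04. B2m turned from -0.61 to 0.06. Depth also differed in the same direction as the groups, and the part of GC content and depth in the differences between KO and WT was not tested.

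**Figure D4:**
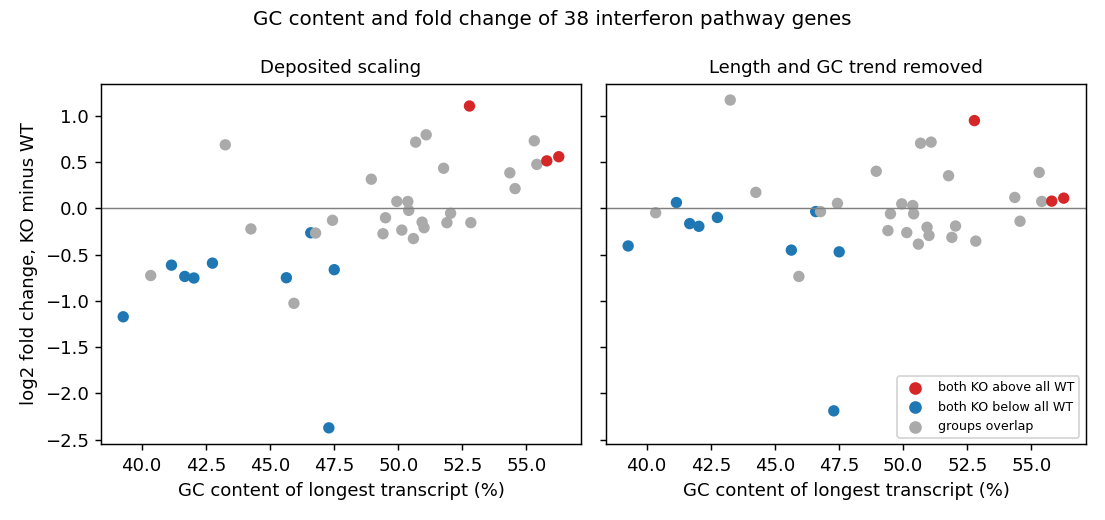
Log2 fold change (KO minus WT) against the GC content of the longest transcript for the 38 interferon pathway genes, with the deposited scaling on the left and after correction for the length and GC trend on the right; colours mark genes whose KO values both lay above or both below all WT values with the deposited scaling. On the left the lower genes lie at 39.3% to 47.5% GC and the higher genes at 52.8% to 56.3%, and on the right Isg15 (0.95) and Mx1 (-2.19) lie farthest from 0 among them.

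The calls depended on which KO library was kept. Without KO 2, the library with adipocyte transcripts, limma called 4 members, Ifit2 and Irgm1 lower and Bst2 and Tap1 higher, which was 10.5% of the members, against 22.1% of all genes in the same fit. DESeq2 then called 7, namely Ifit2, Gbp7, Irgm1 and B2m lower and Ifitm2, Bst2 and Tap1 higher (18.4%, against 31.3% of all genes). Without KO 3, limma called 0 members (0.0293% of all genes) and DESeq2 called Gbp3 alone (2.86%, against 3.59% of all genes). In each of these fits a lone KO library stood for its group and was assumed to vary as the WT libraries did. The 3 DESeq2 calls also depended on WT: without WT 1 none was made, without WT 2 the sole call was B2m, and without WT 3 it was Iigp1, in fits that called 6.67%, 9.72% and 2.66% of all genes. The log2 fold changes in limma without WT 1 were -0.67 for Ifit2, -0.58 for Gbp7 and -0.65 for Irgm1.

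Beyond the 38, a list of 110 further interferon pathway genes was examined, of which 107 were in the table and 96 were tested. limma called 0 of 96, with 27 at an unadjusted p under 0.05 (28.1%, against 27.8% of all genes), 8 higher and 19 lower in KO (8.33% and 19.8%, against 13.3% and 14.5%). edgeR called 0, with 27 at an unadjusted p under 0.05 (28.1%, against 27.2% of all genes). DESeq2 called 18 of 91, 5 higher and 13 lower (19.8%, against 18.7% of all genes). The median log2 fold change was -0.06. The groups did not overlap for 18 higher and 28 lower genes (18.8% and 29.2%, against 23.9% and 23.2% of all genes).

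The 9 type I and type III interferon genes that were looked up, Ifnb1, Ifna1, Ifna2, Ifna4, Ifna5, Ifnk, Ifne, Ifnl2 and Ifnl3, had 0 reads in all 5 libraries, and a count of 0 allows up to 3 reads. Of the 7 receptor chains and kinases, 4 were lower in both KO libraries (57.1%, against 23.2% of all genes) and none was higher (23.9% of all genes). Jak1, the kinase on IFNAR2, was at 6899, 7372 and 6542 normalized reads in WT and at 4339 and 5015 in KO (log2 fold change of -0.57 ± 0.17 SE, limma adjusted p = 0.0919), and it fell in DESeq2 with an adjusted p of 0.0148. Both KO values lay well below the WT range. Ifngr1, a chain of the interferon gamma receptor, was also lower in both KO libraries (log2 fold change of -0.55 ± 0.21 SE, limma adjusted p = 0.143). Tyk2, the kinase on IFNAR1, and Ifngr2 had log2 fold changes of 0.39 and 0.03, both with groups that overlapped.

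Ly6a encodes Sca-1, which was part of the sorting gate and responds to interferon. It was at 857, 298 and 279 normalized reads in WT and at 703 and 670 in KO (log2 fold change of 0.73 ± 0.46 SE, limma adjusted p = 0.324). WT 1 was far above the other WT libraries, and both KO libraries lay below it and above WT 2 and WT 3. Among the further genes whose groups did not overlap, the 3 highest estimates were for Apol9b (1.71), Socs1 (1.45), which inhibits JAK kinases, and Batf2 (1.43). The 3 lowest were for Samd9l (-2.02), a restraint on HSC proliferation, Slfn1 (-1.77), a gene linked to lymphocyte quiescence, and Gbp4 (-1.57). Samd9l was at 1368, 949 and 1585 normalized reads in WT and at 459 and 214 in KO and fell in DESeq2 with an adjusted p of 4.8e-05, whereas its limma adjusted p was 0.0815. With the length and GC trend removed, the estimates were 0.81 for Socs1, 0.92 for Batf2, -1.23 for Samd9l, -1.46 for Slfn1 and -1.07 for Gbp4.

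The further antigen presentation genes stood higher in KO more often than lower. Of the 10 tested, 7 had KO values above all WT values (70.0%, against 23.9% of all genes) and 1, Erap1, had them below (23.2% of all genes), with a median log2 fold change of 0.44. DESeq2 called Psmb8 and Psmb10, subunits of the immunoproteasome, higher (adjusted p = 0.0414 and 0.00902) and Erap1 lower (adjusted p = 0.0265). These 3 genes were named after their values were seen. After correction for length and GC content, the median of the 10 was 0.01.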

How the data were processed

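RNA from sorted HSCs was sequenced in 5 libraries (3 WT, 2 KO). Per the labels, low-input SMART-Seq libraries were made, and the submitters' processing notes name STAR, featureCounts, DESeq2 and the mm10 build without versions. The annotation and the use of strand were not given in the sources used here. The authors deposited normalized signal, that is, reads scaled by a size factor of the library, and also a table of their own comparison (fold changes and p-values), which was not used. Within each library 100% of positive values were whole multiples of the value of 1 read (tolerance 0.01), which gave reads and depth. No molecular identifiers are stated, so PCR copies count as reads and the floor of 3 reads covers counting error only.

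limma 3.58.1 (lmFit, eBayes with trend) in R 4.3.3 was run on log2(value + 1), with a filter of at least 10 in at least 2 libraries and Benjamini-Hochberg adjustment over the 13661 genes tested, and a gene was called at an adjusted p under 0.05. This scale understates changes of low genes. edgeR 4.0.16 and DESeq2 1.42.0 were run on the recovered reads as alternatives. Values in every library are given for members called by any tool, members whose groups did not overlap, the 5 largest and 5 smallest differences and the receptors, while Jak1, Tyk2, Ifngr1, Ifngr2, Ly6a and the 3 highest and 3 lowest of the further genes were named by the same rule. A gene that the same rule named is not reported here. Values of other members were added after they were seen. Transcript length and GC content came from the longest GENCODE M21 transcript (GRCm38, the same build; 13015 of the tested genes and all 38 members matched), and a trend on both was removed from each library as an alternative. The scripts were tested on simulated data. The 38 genes and all lists were chosen with earlier results of these data known.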

Additional observations from a re-analysis of the deposited data

How the results depend on the processing

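Pseudocounts of 10 and 0.1, TMM scaling, quantile normalization, edgeR and a filter on a mean of at least 100 or none left limma's or edgeR's count of called members and of called further genes at 0 and reversed no named gene. Depth differed in the same direction as the groups, and 3 members had too few reads for an adjusted p in DESeq2. DESeq2 called 3 members and 18 further genes. The fold change of Syncrip was -2.43 with no filter (limma adjusted p = 0.0503), -1.53 after correction for length and GC content (limma adjusted p = 0.138) and between -2.55 and -2.32 when each library was left out, with adjusted p of 0.210, 0.164 and 0.192 without WT 1, WT 2 and WT 3. Leaving out each library gave 0 to 4 called members and 0 to 22 further genes in limma, both maxima without KO 2, where 22.1% of all genes were called, and 13 to 23 members whose groups did not overlap, since fewer values can overlap (52.5% to 78.3% of all genes). Fits of DESeq2 without each library were added after the data had been seen and called 0, 1, 1, 7 and 1 members and 6, 5, 2, 29 and 5 further genes without WT 1, WT 2, WT 3, KO 2 and KO 3, where they called 6.67%, 9.72%, 2.66%, 31.3% and 3.59% of all genes. After the correction for length and GC content, 5 members had groups that did not overlap, and Oas3 (-0.14), Rsad2 (0.17), Xaf1 (0.053), B2m (0.062) and Tyk2 (-0.13) reversed, as did Oas1a in DESeq2 (0.016). Leaving out single libraries reversed genes with small differences or a wide spread: Stat2 (-0.32 to 0.036), Irf1 (-0.35 to 0.040), Irf9 (-0.074 to 0.22), Zbp1 (-0.63 to 0.20), Ifit1 (-0.0012 to 1.22), Oas1a (-0.54 to 0.43), Oas3 (-0.21 to 0.63), Mx2 (-0.39 to 1.66), Usp18 (-0.48 to 0.18), Igtp (-0.21 to 0.078), Xaf1 (-0.38 to 0.044) and Ifngr2 (-0.098 to 0.15). WT and KO libraries share the numbers 2 and 3, but the deviations of same-numbered libraries correlated at -0.06 and -0.18 and the labels do not say what a number marks. With the replicate block, in which WT 1 carries no weight, 0 members were called, Syncrip was at -2.34 (limma adjusted p = 0.0289), the members' median was -0.0071, and Zbp1 (0.050), Oas1a (0.031), Igtp (0.078), Xaf1 (0.044) and Ifngr2 (-0.098) reversed. With the replicate block and that correction together, Syncrip was at -1.49 (adjusted p = 0.172), and Oas3 (-0.17), Gbp2 (0.19), Iigp1 (0.089), Igtp (0.11), Rsad2 (0.18), Ifi44 (0.45), Xaf1 (0.21), B2m (0.17), Tyk2 (-0.15) and Ifngr2 (-0.092) reversed. The causes of these reversals were not tested.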

Other observations

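Interferon gamma, the type II ligand, was detected in 4 of the 5 libraries. Ifng was at 9.99, 42.5 and 33.4 normalized reads in WT, at 0 in KO 2 and at 486 in KO 3, so that the KO libraries were the lowest and the highest of the 5 (limma adjusted p = 0.957). Socs1, which interferon gamma is known to induce, was at 165, 155 and 89.1 in WT, at 203 in KO 2 and at 647 in KO 3. Ccl5, a chemokine of activated T and NK cells, was at 9.99, 19.1 and 16.3 in WT, at 20.6 in KO 2 and at 65.3 in KO 3. Of the 6 T and NK cell markers, Nkg7 was at 4890 to 9010 normalized reads, lowest in KO 3. The highest values of the other markers in any library were 57.6 for Cd4 in KO 2, 42.8 for Cd3d in WT 3, 13.3 for Klrb1c and 6.66 for Cd8a in WT 1, and 4.56 for Cd3e in KO 3. The cells had been sorted as Lin-, and the part of T and NK cells in the levels of Ifng and Ccl5 was not tested. Ifng and Ccl5 were picked after their values were seen.

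Of the Schlafen genes, a family of interferon-inducible regulators of growth and translation, 4 were in the list of further interferon genes, and the groups did not overlap for 3 of them, all lower in KO (23.2% of all genes tested were lower in this way). Slfn1 was at 344, 258 and 376 normalized reads in WT and at 82.2 and 106 in KO, Slfn2 at 2351, 2600 and 2912 in WT and at 1831 and 907 in KO, and Slfn8 at 292, 263 and 282 in WT and at 163 and 138 in KO. All 3 fell in DESeq2 (adjusted p = 0.00012, 0.0235 and 0.0351), which called 9.46% of all genes lower, and none passed limma (adjusted p = 0.0815, 0.0891 and 0.108). Slfn5 was at 102, 120 and 49.7 in WT and at 88.4 and 79.0 in KO, inside the WT range. With the length and GC trend removed, the log2 fold changes of Slfn1, Slfn2 and Slfn8 were -1.46, -0.97 and -0.47. These genes were singled out after their values were seen.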
